A study of Bos taurus with 48 samples.

Results

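Weaned and control calves were compared on d 0, in blood taken before the calves were housed, so that neither group had yet met housing or separation from the dam. The 12 libraries were chosen by their labels and are 12 of 48, 6 from calves that were later weaned (1758, 1762, 1769, 1770, 1773 and 1809) and 6 from calves that were later housed with their dams (1755, 1759, 1763, 1789, 1802 and 1803). The labels give the breed of all calves as Continental and the tissue as leukocytes, and the study describes them as spring-born intact male Simmental beef calves that suckled at pasture and had been immunised against respiratory viruses. Each calf gave 1 library per day, d 1, 2 and 7 followed, and the labels count d 0 as a day post-weaning although the study's methods place that sample before housing. The comparison therefore measured how far the groups differed at the outset.

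Leukocytes are the white cells of blood. Neutrophils and monocytes engulf microbes, lymphocytes recognise antigen or kill infected cells, and eosinophils and basophils act against parasites and in allergy. RNA of the whole population is the sum over these cells, so that fewer cells of a type and less RNA per cell cannot be told apart in it. Animals also differ in such mixtures and in inherited expression levels without any treatment, and a baseline sample shows the size of those differences.

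The labels of the calves were compared with the data first. For each calf, the 100 genes that differed most between the other calves relative to the spread over their own days were taken, and the d 0 library was correlated over them with all other libraries, as a description across genes, which are not independent replicates. In 10 of 12 calves the most similar library came from the same calf, and the median correlation with the calf's own later libraries was 0.729 to 0.917. The library labelled weaned 1758 had correlations of 0.122, 0.0621 and -0.145 with the d 1, 2 and 7 libraries of that label, and 0.698 with the d 2 library labelled control 1755. The library labelled control 1763 had correlations of 0.509, 0.556 and 0.538 with its own later libraries, which reached 0.884 to 0.896 among themselves, and 0.664 with the d 0 library of control 1789. These 2 libraries went against their calf labels, and values without them are given for the counts of genes and for many of the single genes.

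**Figure D1:**
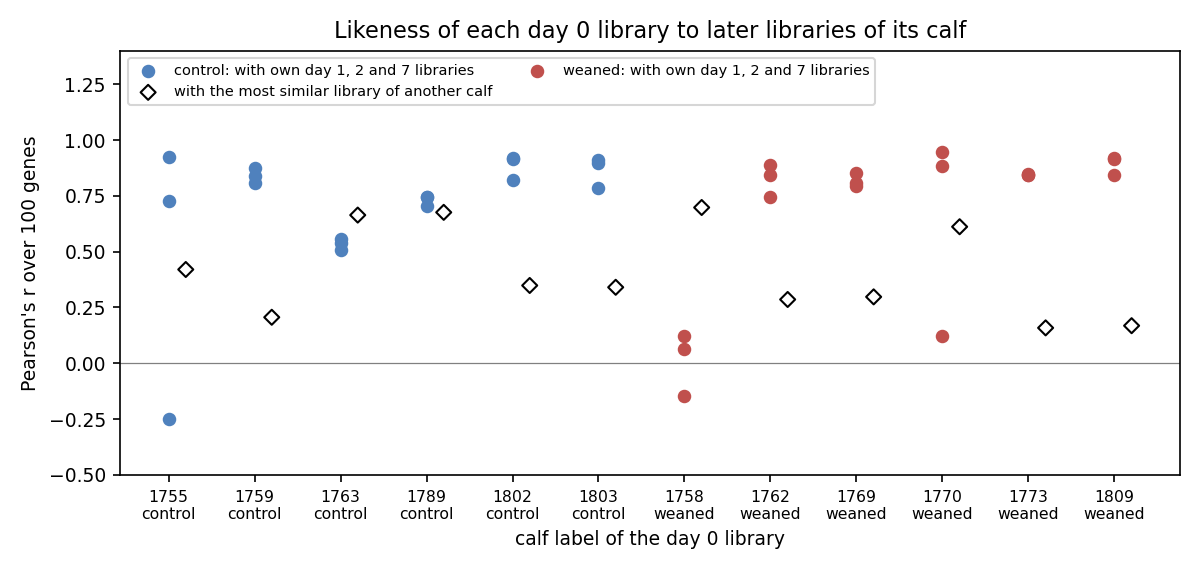
Pearson's r over 100 genes (vertical axis, no unit) of each d 0 library with the d 1, 2 and 7 libraries of its own calf label (filled points, coloured by group) and with the most similar library of another calf (open diamonds). The diamond lies above the filled points for the libraries labelled 1758 and 1763, at 0.698 and 0.664.

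Single genes, picked after their values were seen, showed the same. The gene ENSBTAG00000031825 had 137 counts in the d 0 library labelled 1758, against 2, 4 and 1 in the later libraries of that label, and 193 in the d 2 library labelled 1755, against 4, 1 and 0 in the other libraries of 1755. The gene ENSBTAG00000009725 had 134 counts in the d 0 library labelled 1763 and 3, 9 and 8 later. Both genes were on or off in a calf on every day for most other labels, as in calf 1809, with 269, 260, 265 and 211 counts of the first and 0, 1, 0 and 0 of the second. Later libraries also went against their label: the d 0 library of control 1755 had a correlation of -0.251 with its d 2 library but 0.923 with d 1, and that of weaned 1770 had 0.121 with d 7 but 0.944 with d 2. The d 7 library labelled 1758 had 0.289 and 0.432 with the d 1 and 2 libraries of that label, and 0.612 with the d 0 library of weaned 1770. Groups were kept as labelled throughout.

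Total counts were 2933029 to 4119875 per library, with a median of 3550231 in weaned and 3486908 in control calves (exact permutation p = 0.667, two-sided). At this depth 3 counts in a library correspond to 0.728 to 1.02 CPM (counts scaled to the library total). This floor covers counting error only. Weaned calves had counts on 13964 to 14550 genes and control calves on 13965 to 14502. Between 2 libraries of the same group, chi-square divided by its degrees of freedom was 3.08 to 23.1 (30 pairs), where counting error alone would give about 1.

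No gene was called between the groups on d 0. Of 13926 genes tested, 0 (0%) reached a Benjamini-Hochberg adjusted p under 0.05 with a change of at least 2-fold in edgeR's quasi-likelihood test, and the smallest adjusted p was 0.624. Without adjustment, 868 genes (6.23%) had a p under 0.05, of which 293 (2.1%) were higher and 575 (4.13%) lower in weaned calves, and 163 of them differed by at least 2-fold. The split depended on the fit. It was 454 higher and 1160 lower with flowcell as a factor, 462 and 1124 with the calves of shared flowcells, 267 and 724 by DESeq2, 516 and 1391 without control 1789, and 319 and 1073 without control 1802. It was 218 higher and 192 lower with all 48 libraries in 1 fit, 222 and 184 with the first principal component as a covariate, 139 and 158 without both doubtful libraries, and 199 and 216 without control 1755. Control 1755 and weaned 1769 were each alone on their flowcell, so that the fit with flowcell as a factor takes no group difference from them. A shift in that fit cannot be told apart from the effect of leaving out these calves. DESeq2 called 0 genes, with 991 at an unadjusted p under 0.05. The exact test of edgeR with a single dispersion for all genes called 68, 43 higher and 25 lower in weaned calves, and that with a dispersion for each gene called 1. In 16 of the 68, 1 library held over 50% of the counts of all 12 libraries. The quasi-likelihood test called no gene between the groups at the later samplings either. Its smallest adjusted p there was 0.139, 0.905 and 0.158, in the order d 1, 2 and 7. Unadjusted, 424, 470 and 3552 genes had a p under 0.05, in the same order. The study, using an earlier edgeR version, did report genes for each of these days. A lack of calls is therefore not particular to d 0 and does not show that the groups were equal then.

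The precision allows bounds. The 95% interval of the difference lay within 2-fold in either direction for 9426 genes (67.7% of those tested), and for 8224 (90.4%) of the 9094 genes with a mean of at least 10 CPM. The median standard error of the log2 difference was 0.22 over all genes and 0.16 over those more abundant genes. For rarer genes, the interval often reached beyond 2-fold. It holds both counting error and the spread between calves, which were not separated.

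Among identifiers without a symbol, ENSBTAG00000021553 had the smallest unadjusted p. It had 21 counts in weaned calves, where every library held some, and 0 in all 6 control libraries, which is at least 6.82-fold higher in weaned calves against a floor of 3 counts over the group (adjusted p = 0.624). Its permutation test gave an exact p of 0.00216, which is the smallest possible with 6 calves in each group. However, this gene was picked for its small p and reached the count minimum for testing through the weaned libraries alone. Its permutation p and fold bound therefore describe the values it was picked on and are no separate test. Of the abundant ones, ENSBTAG00000005360 had 68.4 to 166.3 CPM in weaned calves, with a median of 119.8, and 33.6 to 90.8 CPM in control calves, with a median of 59.4 (log2 difference 0.88, SE 0.24, adjusted p = 0.624). The ranges of this gene overlapped, the library labelled 1758 was highest, and without both doubtful libraries the log2 difference was 0.69. On the lower side ENSBTAG00000021449 had 11.2 to 24.2 CPM in weaned calves, with a median of 18.8, and 19.8 to 41.8 CPM in control calves, with a median of 31.2 (log2 difference -0.81, SE 0.23, adjusted p = 0.624). Only the upper weaned and the lower control values of it overlapped.

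Differences between calves were larger than those between groups. The first principal component of log2 CPM over 10246 genes held 51.0% of the variance, and the groups overlapped along it. Weaned calves had scores of -40.9 to 18.9 with a median of -13.5, and control calves of -21.4 to 51.0 with a median of 8.32 (exact permutation p = 0.165). Control 1755 and the library labelled control 1763 were at the high end, weaned 1809 and 1770 at the low end, and weaned 1762 and 1769 lay among the controls. The second component held 9.47% of the variance and set control 1803 apart, at 35.1.

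**Figure D2:**
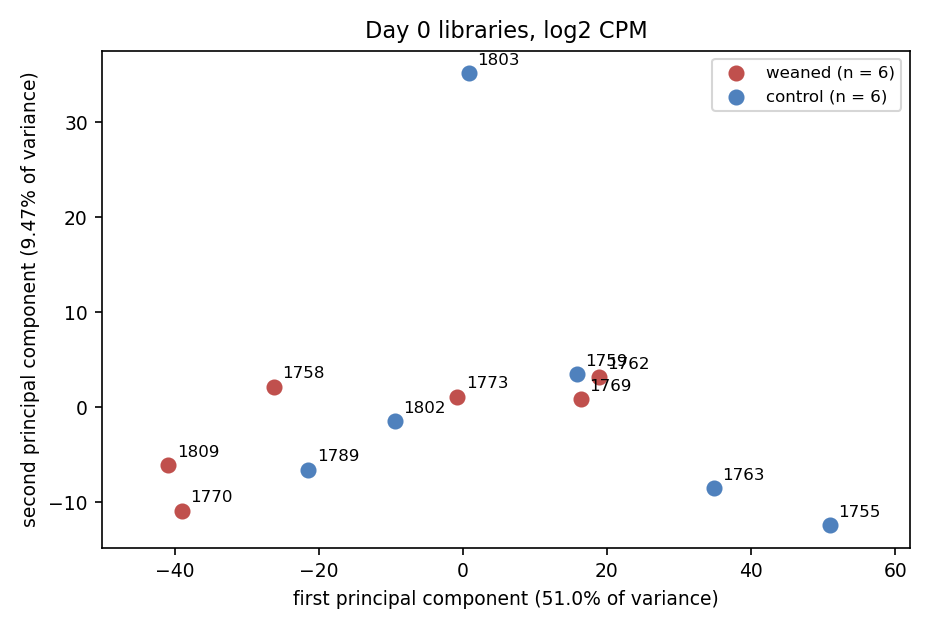
Scores of the 12 d 0 libraries on the first (horizontal axis) and second (vertical axis) principal components of log2 CPM, each point 1 calf with its number, coloured by group. The groups overlap on the first component, from -40.9 to 18.9 in weaned and -21.4 to 51.0 in control calves, and control 1803 stands apart on the second.

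The number of genes at an unadjusted p under 0.05 moved with the calves at the ends of this axis. It was 415 without control 1755, 405 without the library labelled control 1763, 384 without weaned 1770, 407 without weaned 1809 and 562 without the library labelled weaned 1758. It was 1720 without weaned 1762, 1547 without weaned 1769, 1907 without control 1789 and 1392 without control 1802. Leaving out a control at the high end or a weaned calf at the low end thus lowered the count, and leaving out a calf that lay on the other group's side raised it. Without both libraries that went against their labels, 297 genes were at this threshold (2.16% of 13733) with a smallest adjusted p of 0.982, and with the score on the first component as a covariate there were 406 (2.92%).

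Named genes, chosen after their values were seen, show what this axis held. TLR10, a receptor of the toll-like family found on B cells, was the named gene that weighed most at the high end, and CD274, the ligand of the checkpoint receptor PD-1, and CXCL10, a chemokine induced by interferon, were also there. CD274 had 3.53 to 30.1 CPM in weaned calves, with a median of 9.92, and 8.68 to 67.5 CPM in control calves, with a median of 19.4. Its highest value was that of control 1803 and its lowest that of weaned 1809. FBN1, highest in control 1755 at 154.7 CPM, was also at the high end. At the low end, in order of weight, were COL1A1, PRSS1, COL1A2, HNF4A and PGLYRP1, an antibacterial protein of neutrophil granules. PRSS1 was high in weaned 1809 alone.

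Symbols were at hand for 643 identifiers. They came from the published tables of genes called in some comparison of the series, several of which used these d 0 libraries. Of the 581 that were tested, 155 were higher and 426 lower in weaned calves whatever their p, and 18 were higher and 53 lower at an unadjusted p under 0.05, where over all genes the shares were 2.1% and 4.13%. Their median log2 difference was -0.34, against -0.01 over all genes. As the tables were chosen on these samples, these shares are not independent evidence of a direction. The adjusted p in edgeR's quasi-likelihood test on d 0 was at least 0.624 for every gene named here, so that the differences below describe these 12 calves. Permutation tests are exact and two-sided. Most of the named genes were chosen for a small unadjusted p on these libraries. Their permutation p uses the values they were picked on and is no separate test.

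Of the 10 named genes with the smallest unadjusted p on the higher side, HIC1 and LIF are given first. HIC1 (ENSBTAG00000025130), a transcriptional repressor, had 23.3 to 63.7 CPM in weaned calves, with a median of 38.5, and 9.94 to 27.0 CPM in control calves, with a median of 21.4 (log2 difference 0.93, SE 0.27, exact p = 0.0216). All 6 weaned calves were above the control median, and the ranges overlapped, with weaned 1762 and 1773 below controls 1789, 1759 and 1803. The highest value was that of the library labelled 1758, and without it and the library labelled 1763 the log2 difference was 0.69. LIF (ENSBTAG00000007424), a cytokine of the interleukin 6 family, had 7.04 to 18.8 CPM in weaned calves, with a median of 10.9, and 3.62 to 11.3 CPM in control calves, with a median of 5.21 (log2 difference 0.94, SE 0.30, exact p = 0.0195). Weaned 1770 was highest, controls 1802 and 1755 were inside the weaned range, and without both doubtful libraries the log2 difference was 0.95. In both genes, as in HBB and ALAS2, the weaned calf was above the control calf on all 5 flowcells that held 1 library of each group. The genes were chosen on these same libraries, and the share of all genes with such an order was not counted. The order on flowcells is therefore a description and no test.

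RHCG, ADCY8, THBS2 and COL14A1 were also among these 10 genes. RHCG (ENSBTAG00000005471), an ammonia transporter, had 0.821 to 4.22 CPM in weaned calves, with a median of 2.57, and 0 to 1.25 CPM in control calves, with a median of 0.544 (log2 difference 1.95, SE 0.56, exact p = 0.0152). Weaned 1773 and 1809 lay among the controls, and weaned libraries held 3 to 18 counts and control libraries 0 to 4. ADCY8 (ENSBTAG00000014600), an adenylyl cyclase that makes cyclic AMP, had 3.87 to 7.94 CPM with a median of 4.87 in weaned and 2.51 to 4.45 CPM with a median of 3.21 in control calves (log2 difference 0.69, SE 0.28, exact p = 0.0195). COL14A1 (ENSBTAG00000013369), a collagen that binds to fibrils, had 7.87 to 27.3 CPM with a median of 19.0 in weaned and 6.26 to 13.4 CPM with a median of 10.8 in control calves (log2 difference 0.81, SE 0.31, exact p = 0.0844). The ranges of both genes overlapped, and 5 weaned calves were above the control median of COL14A1 and 6 above that of ADCY8. The library labelled 1758 was highest in COL14A1 and next to highest in ADCY8, and without both doubtful libraries the log2 differences were 0.69 and 0.53. THBS2 (ENSBTAG00000018810), a thrombospondin of the extracellular matrix, had 21 counts in the weaned group and 3 in controls, a ratio of 6.82 with a counting interval of 2.04 to 35.7. It passed the filter of 10 counts through the weaned group only, so that its values are a description and no test.

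**Figure D3:**
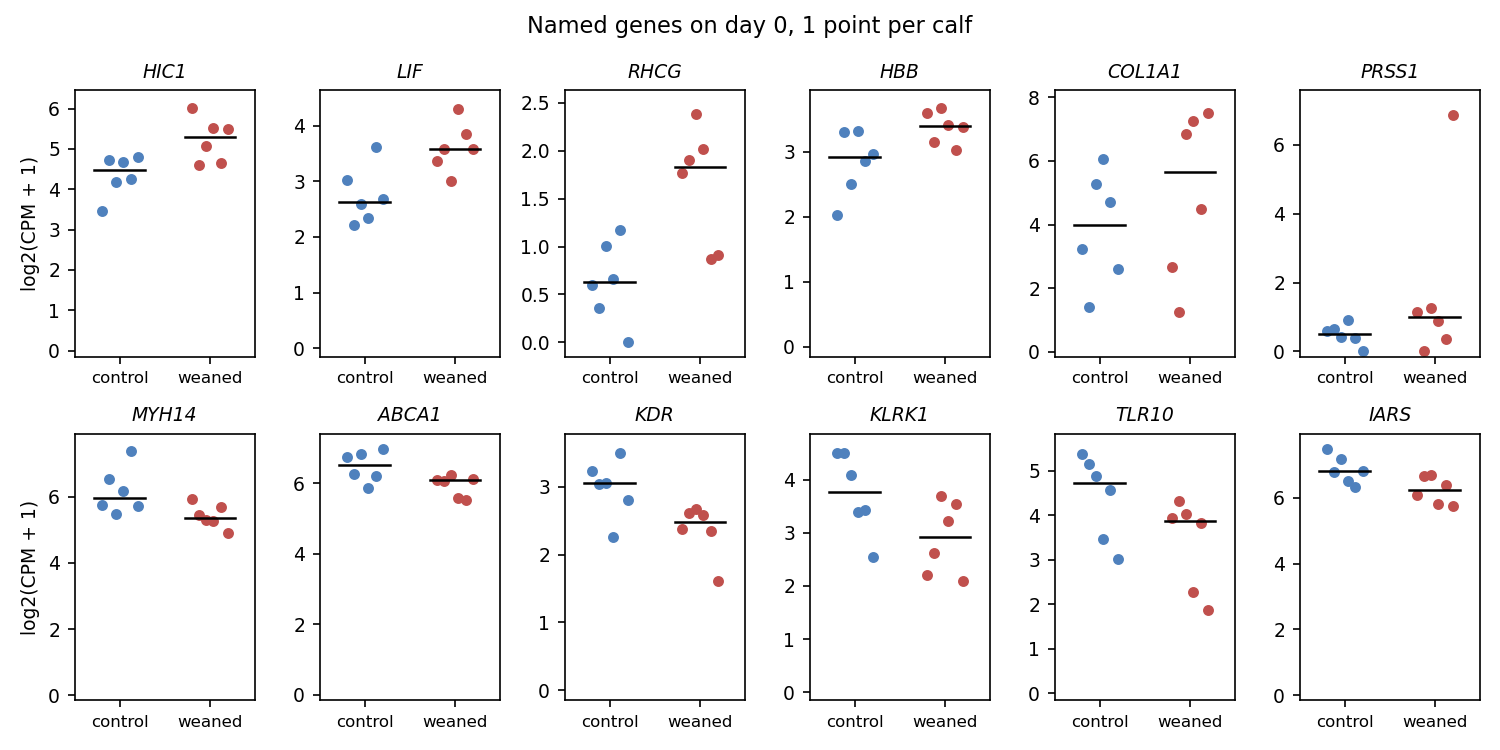
log2(CPM + 1) of 12 named genes on d 0 (vertical axes) in control and weaned calves, 1 point per calf, with the group median as a black line. The groups overlap in every panel, and in PRSS1 a single weaned calf, 1809, is far above the rest at 115.5 CPM.

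Other differences came from 1 library. PRSS1 (ENSBTAG00000021565), a trypsin, had 392 counts in weaned 1809 and at most 6 in any other d 0 library, and 103, 91.2 and 116.0 CPM were the highest weaned values on d 1, 2 and 7. Its log2 difference of 5.40 was 0.77 without weaned 1809. ULBP3 (ENSBTAG00000038891), of a family of ligands of the killer cell receptor NKG2D, had 49 of its 53 weaned counts in 1770, and 1 count in control calves (ratio 51.6, counting interval 8.87 to 2077). FOLR1 (ENSBTAG00000021007), a folate receptor, had 28 of its 30 weaned counts in 1769 and 2 counts in control calves (ratio 14.6, counting interval 3.71 to 126.2). Another identifier with the symbol FOLR1, ENSBTAG00000038532, was also higher in weaned calves, with a log2 difference of 2.38 in edgeR's exact test with a common dispersion. All counting intervals given for single genes pool the counts of a group and leave out the spread between calves, so that they are no test between the groups. These 3 genes belong to families with near-identical copies, so that their identity is uncertain. IL12B (ENSBTAG00000004741), a subunit of interleukin 12 and 23 that was picked after its values were seen, had 31.4 CPM in weaned 1769, while medians were 3.16 CPM in weaned and 2.55 CPM in control calves.

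Single control calves stood out likewise. P2RY14 (ENSBTAG00000020990), a receptor for UDP-glucose, had 1.64 to 4.79 CPM in weaned calves, with a median of 2.53, and 2.23 to 17.6 CPM in control calves, with a median of 4.21 (log2 difference -1.55, SE 0.51, exact p = 0.0736). Controls 1803 and 1755, at 17.6 and 16.6 CPM, were high and the other 4 controls lay in the weaned range. With flowcell as a factor the log2 difference was -0.78, and the weaned calf was the higher on 2 of 5 shared flowcells. IL5RA (ENSBTAG00000000273), the receptor chain by which eosinophils respond to interleukin 5, had 2.65 to 13.7 CPM in weaned calves, with a median of 6.87, and 4.18 to 45.9 CPM in control calves, with a median of 10.3 (log2 difference -1.18, SE 0.52, exact p = 0.208). Control 1755 was highest, and without it the log2 difference was -0.53. With flowcell as a factor it was -0.30, and the weaned calf was the higher on 3 of 5 shared flowcells.

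On the lower side MYH14 and ABCA1 are given first. MYH14 (ENSBTAG00000002580), a heavy chain of non-muscle myosin, had 28.9 to 60.1 CPM in weaned calves, with a median of 40.2, and 43.8 to 167.2 CPM in control calves, with a median of 61.6 (log2 difference -0.89, SE 0.29, exact p = 0.0281). All weaned calves were below the control median, control 1802 was far above the others, and the library labelled 1758 was the highest of the weaned. Without 1802 the log2 difference was -0.54, and without both doubtful libraries it was -1.13. ABCA1 (ENSBTAG00000020661), which exports cholesterol from cells, had 44.9 to 74.6 CPM in weaned calves, with a median of 67.0, and 57.6 to 124.7 CPM in control calves, with a median of 91.2 (log2 difference -0.58, SE 0.19, exact p = 0.0455). The ranges overlapped, as controls 1789 and 1802 were below weaned 1769, and without both doubtful libraries the log2 difference was -0.55. The weaned calf was the lower on all 5 shared flowcells in both genes, as it was in RFC1, TSHB, IL1A, TLR10, GZMA, CXCL10, BUB1B and HSPH1. These genes too were chosen on the same libraries, so that their order on flowcells is a description and no test.

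IARS and RFC1 serve protein synthesis and DNA replication, as the enzyme that loads isoleucine onto its transfer RNA and as the large subunit of the clamp loader. IARS (ENSBTAG00000000974) had 52.7 to 101.5 CPM in weaned calves, with a median of 74.8, and 79.7 to 176.9 CPM in control calves, with a median of 110.5 (log2 difference -0.64, SE 0.21, exact p = 0.0303). RFC1 (ENSBTAG00000014515) had 42.8 to 79.0 CPM in weaned calves, with a median of 54.7, and 56.6 to 140.2 CPM in control calves, with a median of 83.6 (log2 difference -0.66, SE 0.23, exact p = 0.0498). All weaned calves were below the control median in both genes, although the ranges overlapped. Control 1755, at the high end of the first component, was the highest in both, and with the score on that component as a covariate the log2 differences were -0.28 and -0.26. The library labelled 1763 was next, and without both doubtful libraries they were -0.55 and -0.48.

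Several other genes on the lower side were rare transcripts. KDR (ENSBTAG00000000782), a receptor of vascular endothelial growth factor, had 2.06 to 5.39 CPM in weaned calves, with a median of 4.59, and 3.76 to 10.4 CPM in control calves, with a median of 7.30 (log2 difference -0.73, SE 0.28, exact p = 0.0216). Weaned 1809 was lowest, and all weaned calves were below the control median. ITGA2, the collagen-binding integrin chain of platelets, had 6 counts in the weaned group and 25 in controls (log2 difference -1.97, SE 0.61). IL1A, an inflammatory cytokine, had 7 and 26 counts (log2 difference -1.83, and -1.45 without both doubtful libraries), EDNRB, an endothelin receptor, 6 and 23, and TSHB, the beta chain of thyrotropin, 4 and 17. DNAL1, a dynein light chain, had 8 and 26 counts, and MPDZ, a scaffold protein of cell junctions, 2 and 13, which is a ratio of 0.15 with a counting interval of 0.016 to 0.66. For these 6 rare genes no weaned library held more than 2 counts, which is under the floor, and the ranges of all overlapped. All 6 passed the filter of 10 counts through the control group only, so that their values are a description and no test.

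Collagen transcripts, which fibroblasts and other connective tissue cells make, varied widely among the calves. COL1A1 (ENSBTAG00000013103) had 1.37 to 181.4 CPM in weaned calves, with a median of 68.1, and 1.67 to 66.0 CPM in control calves, with a median of 16.9 (log2 difference 1.73, SE 0.88, exact p = 0.403). Weaned 1809, 1770 and 1769 were high with 616, 548 and 490 counts, weaned 1762 had 4, the library labelled 1758 had 18, and control 1789, with 228, was above the other 3 weaned calves. COL1A2 (ENSBTAG00000013472) had 0 to 89.8 CPM in weaned calves, with a median of 40.9, and 0.557 to 42.3 CPM in control calves, with a median of 5.85 (log2 difference 1.82, SE 0.94, exact p = 0.346). COL3A1 (ENSBTAG00000021466) had 1.37 to 66.6 CPM with a median of 19.7 in weaned and 2.51 to 25.8 CPM with a median of 6.23 in control calves (log2 difference 1.58, SE 0.77, exact p = 0.385). The same weaned calves were high in all 3 genes, and without both doubtful libraries the log2 differences were 2.14, 2.13 and 1.93. Without control 1789 they were 2.36, 2.88 and 2.19.

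Of 11 fibroblast markers, 6 could be identified and 4 were tested, all higher in weaned calves, 0 of them at an unadjusted p under 0.05, with a median log2 difference of 1.65. At this threshold 2.1% of all genes were higher, and 155 of the 581 genes with a symbol were higher whatever their p. Summed over the 6, weaned calves had 3.08 to 332.5 CPM, with a median of 148.8, and control calves 4.73 to 134.9 CPM, with a median of 29.0. COL1A1 was the most abundant member. Lumican, a matrix proteoglycan that defines fibroblasts (LUM), had 2 counts in the weaned group and 0 in controls, decorin (DCN) had 24 and 9, and PDGFRB, a growth factor receptor of mesenchymal cells, had 9 and 0. The part of such cells in the collagen values was not tested. On the 5 shared flowcells the weaned calf had more COL1A1 on 3 and less on 2, and with flowcell as a factor the log2 differences of COL1A1, COL1A2 and COL3A1 were 0.82, 1.17 and 0.63.

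Whether the samples were leukocytes could be checked on few markers, since PTPRC, which all leukocytes carry, and the markers of T cells, B cells, plasma cells and keratinocytes were not analysed here for want of symbols. Of 17 markers of cytotoxic and natural killer cells 3 were measured, all lower in weaned calves, with a median log2 difference of -0.75, as were 426 of the 581 genes with a symbol. KLRK1 (ENSBTAG00000004917), the receptor NKG2D, had 3.24 to 11.96 CPM in weaned calves, with a median of 6.71, and 4.84 to 21.7 CPM in control calves, with a median of 12.9 (log2 difference -0.95, SE 0.39, exact p = 0.0758). GZMA, a protease of killer cell granules, had 4.12 to 25.8 CPM in weaned calves, with a median of 9.72, and 11.4 to 30.1 CPM in control calves, with a median of 19.0 (log2 difference -0.75, SE 0.37, exact p = 0.0606). Weaned 1809 was the lowest in both genes and control 1803 the lowest control, and with the score on the first component as a covariate the log2 differences were -0.49 and -0.52. Without both doubtful libraries they were -0.78 and -0.52. With flowcell as a factor they were -0.94 and -1.25, and without weaned 1769 they were -1.16 and -1.18.

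Few markers of granulocytes and monocytes were measured. The study also counted blood cells on d 0, in all its calves, including those not sequenced. Its mean neutrophil and monocyte percentages were higher and its lymphocyte and eosinophil percentages lower in calves to be weaned. No difference between treatments was marked for them on that day. These counts were not set against the RNA values of single calves. Of 14 eosinophil and basophil markers 6 were tested, 1 higher and 5 lower in weaned calves, with a median log2 difference of -0.17, and IL5RA was the 1 at an unadjusted p under 0.05. Over all genes 4.13% were lower at this threshold, and 426 of the 581 genes with a symbol were lower whatever their p. ALOX15, the lipoxygenase of eosinophils and the most abundant of them, had 96.9 to 242.0 CPM in weaned calves, with a median of 173.7, and 109.9 to 320.8 CPM in control calves, with a median of 221.9 (log2 difference -0.28, SE 0.24). The library labelled 1758 was the highest weaned one, and without both doubtful libraries the log2 difference was -0.37. With flowcell as a factor its sign turned, to 0.0396. PGLYRP1, the only neutrophil marker measured, had 2.35 to 11.1 CPM with a median of 8.38 in weaned and 2.04 to 26.7 CPM with a median of 4.42 in control calves (log2 difference -0.03, SE 0.56). Control 1802 was far above all others for it, and the 95% interval of -1.21 to 1.14 takes in a 2-fold difference in either direction. The log2 difference was 0.88 without control 1802 and 0.30 with flowcell as a factor. Without both doubtful libraries the log2 difference was -0.34. CLEC7A, the beta-glucan receptor of monocytes, and FLT3, a cytokine receptor of dendritic cells, had log2 differences of -0.56 (SE 0.41) and -0.18 (SE 0.31).

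Red cells had been lysed before the leukocytes were collected, and platelet and red cell markers were measured at low levels, the source of which was not tested. The 4 platelet markers measured, 2 higher and 2 lower, had a median log2 difference of -0.07, and P2RY12, their receptor for ADP, had 9.39 to 22.6 CPM in weaned and 7.79 to 32.5 CPM in control calves, with medians of 14.01 and 13.11. The 3 red cell markers tested were all higher in weaned calves, with a median log2 difference of 0.56. Of the 581 genes with a symbol, 155 were higher whatever their p. Of the 3 markers ALAS2 alone was at an unadjusted p under 0.05, where 2.1% of all genes were higher. HBB (ENSBTAG00000038748), the beta chain of haemoglobin, had 7.12 to 11.7 CPM in weaned calves, with a median of 9.55, and 3.06 to 8.97 CPM in control calves, with a median of 6.55 (log2 difference 0.56, SE 0.26, exact p = 0.0368). All weaned calves were above the control median and on all 5 shared flowcells above the control calf. ALAS2 (ENSBTAG00000013178), the first enzyme of haem synthesis in red cell precursors, had 1.37 to 10.2 CPM in weaned calves, with a median of 4.12, and 0.335 to 4.05 CPM in control calves, with a median of 1.46 (log2 difference 1.29, SE 0.51, exact p = 0.0758). Weaned 1770 was highest, and the groups overlapped, whereas GATA1, a transcription factor of these cells but not of these alone, had a log2 difference of 0.16 (SE 0.29). Without both doubtful libraries the log2 differences of HBB, ALAS2 and GATA1 were 0.43, 1.24 and -0.013.

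Few genes of stress signalling were measured, and 0 of those named here were at an unadjusted p under 0.05, where 6.23% of all genes tested were. ADRB1 and ADRB3, receptors of adrenaline and noradrenaline, had log2 differences of -0.08 (SE 0.35) and 0.32 (SE 0.39). ADRB3 had 8.55 to 43.6 CPM in weaned calves, with a median of 17.5, and 5.86 to 27.3 CPM in control calves, with a median of 16.3. The ranges overlapped, and weaned 1769 was highest. FOS and FOSB, transcription factors made within minutes of a stimulus, had log2 differences of 0.01 (SE 0.29) and 0.14 (SE 0.19), and the heat shock genes HSPH1 and HSPA6 of -0.44 (SE 0.26) and 0.09 (SE 0.32). With flowcell as a factor ADRB3, FOS, FOSB and HSPA6 had differences of the opposite sign. That fit takes no group difference from weaned 1769 and control 1755. Without weaned 1769 alone ADRB3 and FOS also turned, to -0.048 and -0.12, while FOSB and HSPA6 kept their sign. With the score on the first component as a covariate the log2 difference of HSPH1 was -0.042.

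Of 22 inflammatory cytokine genes 7 were identified and 5 tested, with a median log2 difference of 0.05. LIF and IL12B were higher and IL1A lower in weaned calves at an unadjusted p under 0.05, where over all genes 2.1% were higher and 4.13% lower. CCL4, a chemokine for lymphocytes and monocytes, was the most abundant, with 11.6 to 42.2 CPM in weaned and 11.4 to 34.5 CPM in control calves and medians of 19.2 and 18.7. The 3 toll-like receptors measured, of 21 genes of that pathway, were all lower in weaned calves, which with 426 of 581 genes with a symbol on that side is not particular to them. TLR7, which senses single-stranded RNA, had 37.0 to 109.8 CPM in weaned calves, with a median of 79.6, and 68.6 to 162.6 CPM in control calves, with a median of 107.3 (log2 difference -0.57, SE 0.27, exact p = 0.102). TLR10 had 2.65 to 19.2 CPM with a median of 13.8 in weaned and 7.12 to 40.5 CPM with a median of 25.8 in control calves (log2 difference -1.07, SE 0.46, exact p = 0.104). The ranges of both overlapped, and with the score on the first component as a covariate the log2 differences were -0.12 and -0.46. Without both doubtful libraries they were -0.42 and -1.10.

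Of 31 interferon-stimulated genes 2 were measured and of 27 cell cycle genes 2, all lower in weaned calves, like 426 of the 581 genes with a symbol, and 0 at an unadjusted p under 0.05. At that threshold 4.13% of all genes were lower. CXCL10 had 2.21 to 18.1 CPM in weaned calves, with a median of 9.22, and 5.21 to 33.6 CPM in control calves, with a median of 16.9 (log2 difference -0.95, SE 0.48, exact p = 0.0974), and DDX58, a sensor of viral RNA, had a log2 difference of -0.34 (SE 0.28). Weaned 1770 was lowest and control 1803 highest for CXCL10. BUB1B, a mitotic checkpoint kinase, and CDK1, which drives entry into mitosis, had log2 differences of -0.59 (SE 0.31) and -0.25 (SE 0.38), without both doubtful libraries of -0.44 and 0.06, and with the first component as a covariate of -0.24 and 0.21. The 5 ribosomal protein genes identified had 10 to 186 counts over the 12 libraries and may share reads with processed copies, so that their median log2 difference of -1.46 is uncertain. Of 6 tested genes that link collagen and platelets in haemostasis all were lower in weaned calves, with a median log2 difference of -0.48 and 3 at an unadjusted p under 0.05, ITGA2, P2RY14 and PLA2G4A, which frees arachidonic acid. Over all genes 4.13% were lower at this threshold, and of the 581 genes with a symbol 426 were lower whatever their p, so that nothing particular to the list is read from it.

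Genes singled out in the publication for the later days were examined for a difference that was already there. Of 49 such genes 47 were identified and 39 had enough counts on d 0, of which 17 were higher and 22 lower in weaned calves, with a median log2 difference of -0.08. At an unadjusted p under 0.05 were 4 of them, LIF and AQP1 on the higher side and ITGA2 and KDR on the lower, where 6.23% of all genes tested were, and 18 higher and 53 lower of the 581 with a symbol. AQP1, a water channel, had 13 counts in the weaned group and 2 in controls, a ratio of 6.33 with a counting interval of 1.43 to 57.8. The list was chosen by the study on the same calves, in part against these d 0 libraries, so that the shares are a description and not independent evidence.

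The same calves were compared on the later days by the same fit, and the values are set side by side without a test between days. COL1A1 had log2 differences of 1.73 on d 0 (SE 0.88), -0.06 on d 1 (SE 1.03), -2.38 on d 2 (SE 0.97) and -2.48 on d 7 (SE 0.97), so that the group with the higher collagen level on d 0 was the lower on d 2 and 7. In weaned calves its median was 68.1, 27.7, 2.97 and 4.05 CPM on the 4 days, and in control calves 16.9, 30.6, 30.8 and 15.5 CPM. KDR had log2 differences of -0.73 (SE 0.28), 0.98 (SE 0.43), 0.66 (SE 0.48) and 0.84 (SE 0.44), and ITGA2 of -1.97 (SE 0.61), 0.07 (SE 0.50), 0.41 (SE 0.66) and 1.08 (SE 0.62). Medians of KDR were 4.59, 5.44, 5.69 and 6.201 CPM in weaned and 7.30, 4.34, 5.04 and 6.187 CPM in control calves, and on d 2 the median of ITGA2 was lower in weaned calves (0.750 against 0.880 CPM). The libraries labelled 1758 were the highest of the later weaned values, with 20.8, 15.2 and 20.8 CPM of KDR on d 1, 2 and 7 and 15 and 14 counts of ITGA2 on d 2 and 7. The d 7 library of that label is a doubtful one.

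MYH14 kept its side. It had log2 differences of -0.89 (SE 0.29), -1.04 (SE 0.31), -1.10 (SE 0.33) and -0.97 (SE 0.24) on d 0, 1, 2 and 7, with that of d 0 at -0.54 without control 1802. On d 7 the doubtful library labelled 1758 was the lowest weaned one, at 22.3 CPM. LIF had log2 differences of 0.94 (SE 0.30), 0.87 (SE 0.33), 0.82 (SE 0.39) and 0.23 (SE 0.37). Its medians were 10.9, 12.2, 13.2 and 15.2 CPM in weaned and 5.21, 6.14, 8.38 and 16.1 CPM in control calves, so that the weaned median was the lower on d 7, when the doubtful library labelled 1758 had 32.8 CPM. HIC1 was higher in weaned calves on d 0 only, with log2 differences of 0.93 (SE 0.27), -0.59 (SE 0.31), -0.18 (SE 0.29) and -0.40 (SE 0.33). ABCA1 had log2 differences of -0.58 (SE 0.19), 0.39 (SE 0.30), 0.46 (SE 0.45) and 1.03 (SE 0.42). On d 2 its weaned median was the lower (90.1 against 93.8 CPM), and the library labelled 1758 had 383.0 CPM where the other weaned libraries had at most 125.9 CPM. Some of the later libraries went against their calf label, as given above.

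**Figure D4:**
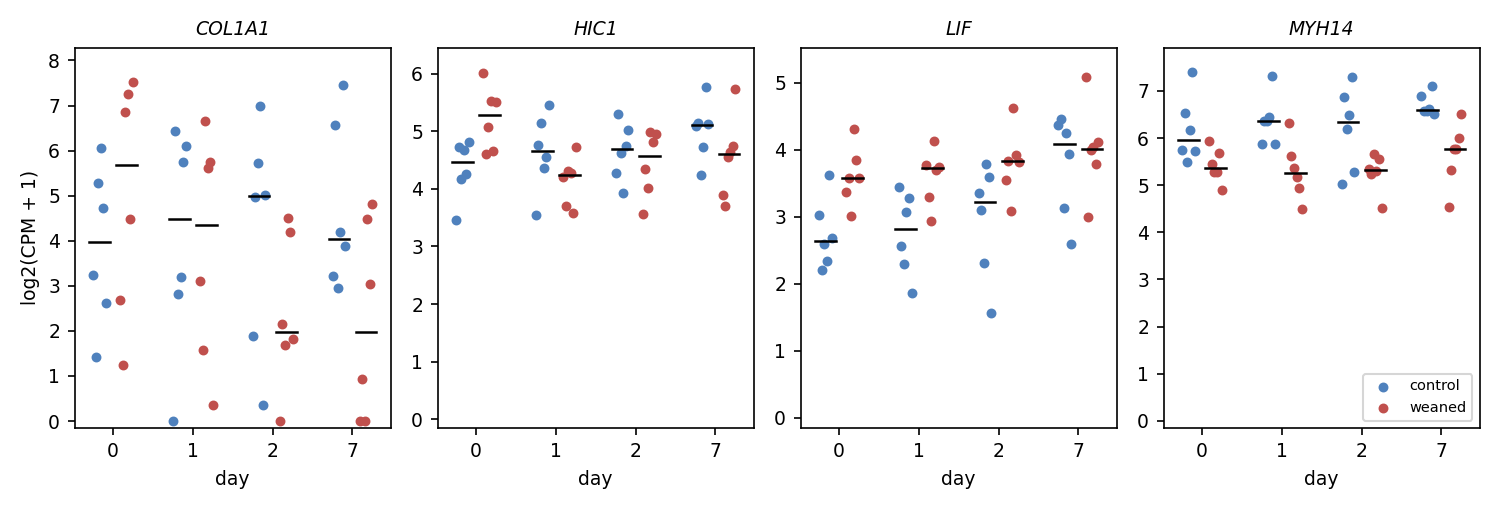
log2(CPM + 1) of 4 genes (vertical axes) in control and weaned calves on d 0, 1, 2 and 7 (horizontal axes), 1 point per library, with group medians as black lines. MYH14 is lower in weaned calves on each day, and COL1A1 has its highest weaned median, 68.1 CPM, on d 0.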

How the data were processed

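Leukocyte RNA-seq counts of 12 calves on d 0 were used, with those of d 1, 2 and 7 for comparison. Per the labels and the study's methods, the authors made 36 bp single reads (CASAVA 1.6, FastQC 0.9.1), aligned them to Btau4.0 (Bowtie 0.12.7) allowing no mismatch, dropped reads that aligned more than once, removed duplicate reads and deposited raw counts per Ensembl gene (HTSeq 0.4.6p2). Use of strand was not stated. Genes with at least 10 counts over the 12 libraries were tested with edgeR 4.0.16 (R 4.3.3; TMM, quasi-likelihood F-test), called at Benjamini-Hochberg adjusted p under 0.05 and at least 2-fold, and compared with DESeq2 1.42.0. CPM of single genes are TMM-scaled. Exact permutation tests used log2(CPM + 1). Procedures were tested on simulated data, of which no values are given here. Symbols are human orthologs from the study's supplementary tables. Named genes were those with symbols: the 10 smallest unadjusted p per direction, in each list the most abundant and the 2 with the smallest p, study genes with unadjusted p under 0.05, and 3 collagens. Other genes (ADRB1, IL12B, CD274, FBN1, HNF4A, PLA2G4A, DCN, LUM and PDGFRB) were picked after values were seen. A gene that the rule chose is not reported here. Members and lists were chosen with earlier results of these data known. Of 27 lists, 9 (T cell, gamma delta T cell, B cell, plasma cell, keratinocyte, glucocorticoid, circadian, MHC class II and complex I) had no member with a symbol and were not analysed here. Alternatives covered scaling, filters, tests, flowcell, reads kept after duplicate removal and each calf left out. Added after seeing the data were fits without the libraries labelled 1758 and 1763 and with the first principal component.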

Additional observations from a re-analysis of the deposited data

Results flagged for a closer look

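Of 118 groups of 6 values examined (54 named genes on the log2(CPM + 1) scale and 5 library measures, each in weaned and control calves), 11 had a highest or lowest calf far from the others, where chance gives about 5%. Among weaned calves, 1809 stood apart with 115.5 CPM of PRSS1 and 2.06 CPM of KDR, 1770 with 13.5 CPM of ULBP3, 1769 with 6.57 CPM of FOLR1 and with 14550 genes with a count, and 1762 with 1.71 CPM of RPL35A and 8.21 CPM of RPL5. Among control calves, 1803 stood apart with 13.4 CPM of THBS1, a platelet and matrix glycoprotein, and with a score of 35.1 on the second principal component, 1789 with 0.289 CPM of ULBP3, which is 1 count, and 1759 with 0.557 CPM of AQP1, which is 2 counts.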

How the results depend on the processing

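The count of 0 called genes held in all alternatives but edgeR's exact tests, which called 68 genes with a common dispersion and 1 with tagwise dispersions. At an unadjusted p under 0.05, the 868 genes became 1681 by the exact test with a common dispersion, 410 with all 48 libraries in 1 fit, 1614 with flowcell as a factor, 1586 with the calves of shared flowcells, and 384 to 1907 with each calf left out in turn. In the alternatives added after seeing the data they became 297 without both libraries unlike their calf and 406 with the first principal component. The cause was not tested. Over the 54 named genes, 1285 of 1330 alternative log2 differences kept their direction, and 11 passed the threshold, all by the exact test with a common dispersion. With flowcell as a factor the sign turned in FOLR1 (-0.056), ALOX15 (0.0396), ADRB3 (-0.26), FOSB (-0.064), THBS1 (0.16), P2RY12 (0.14), HSPA6 (-0.083), CCL4 (-0.30), PGLYRP1 (0.30) and FOS (-0.24), and with the calves of shared flowcells in ALOX15 (0.0400), ADRB3 (-0.27), FOSB (-0.0633), THBS1 (0.16), P2RY12 (0.14), HSPA6 (-0.0821), CCL4 (-0.29), PGLYRP1 (0.30) and FOS (-0.24). With the first component it turned in CLEC7A (0.075), CDK1 (0.21), FLT3 (0.099), P2RY12 (0.10) and FOS (-0.011), without both libraries in CDK1 (0.065) and GATA1 (-0.013), and in FOS also with RLE factors (-0.00169) and DESeq2 (-0.00398). With each calf left out the log2 difference spanned 0 in ADRB3 (-0.048 to 0.52), GATA1 (-0.013 to 0.35), P2RY12 (-0.32 to 0.14), HSPA6 (-0.18 to 0.21), CCL4 (-0.25 to 0.24), PGLYRP1 (-0.23 to 0.88) and FOS (-0.15 to 0.29). No paired analysis was possible because the weaned and control groups share no calf, and the fit on shared flowcells matches libraries by flowcell only. Control 1755 and weaned 1769 had no partner on their flowcell, so that the fit with flowcell as a factor takes no group difference from them and is nearly the same fit. Depth limits genes under about 1 CPM.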
